A study of Mus musculus with 8 samples.

Results

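The genes examined here, 8 in all, stand high in the splenic B cells of the Eµ-TCL1 mouse. They are Plk2, Fxyd6, Cplx2, Cacng2, Klhdc8b and Dmtn, which code for proteins, and Gm42031 and 5830444B04Rik, which are annotated as noncoding. These 8 genes were chosen by their own readout, because the Eµ-TCL1 value exceeded the Eµ-PRMT5 values several-fold in an earlier look at these counts, so that contrast is described and not tested. All 8 have a row among the 24902 gene symbols of the matrix, all 8 have a value in every library, and all 8 passed the expression filter that kept 13173 genes.

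The libraries came from pan-B cells of the spleen of 8 C57BL/6N mice that had met early removal criteria (ERC). For the Eµ-TCL1 mice used in its cross, the paper's methods name C57BL/6J instead. Of these mice, 4 carried Eµ-hPRMT5 (Eµ-PRMT5), 3 carried Eµ-hPRMT5/hTCL1 (Eµ-PRMT5/TCL1) and 1 carried Eµ-hTCL1 (Eµ-TCL1). The labels give no treatment and no ages. In Eµ-PRMT5 mice a VH promoter and the IgH-µ enhancer drive human PRMT5, an arginine methyltransferase, in B cells. Founder lines of Eµ-PRMT5 mice numbered 3, and the sources do not tie each mouse to a line, although the title of Eµ-PRMT5 mouse 2 carries a name that the methods give to a founder. The titles of Eµ-PRMT5 mice 3 and 4 carry numbers that the paper also uses in its histology. It describes anaplastic large lymphocytes under the first number and sheets of small lymphocytes under the second. Eµ-TCL1 mice, in which the TCL1 oncogene is driven in B cells, are an established model of chronic lymphocytic leukemia. Wild-type mice and further Eµ-TCL1 mice were not analysed here, so every Eµ-TCL1 value is from a single animal and carries counting error only.

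The products of these genes work in different places. Plk2 is a Polo-like kinase that is induced by growth factors, neuronal activity and p53, and acts in the cell cycle and at synapses. Fxyd6 belongs to the small membrane proteins that modulate the Na,K-ATPase. Cplx2 (complexin 2) binds the SNARE complex and regulates exocytosis, and Cacng2 (stargazin) is an auxiliary subunit of AMPA receptors, the main fast excitatory receptors of the brain. Klhdc8b is a kelch-repeat protein with a role in cytokinesis. Dmtn (dematin) bundles actin filaments in the red cell membrane skeleton.

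The start sites were read first, since the genes were chosen for a shared peak. RefSeq (GRCm38.p6) gave promoter windows for 6 of the 8 genes, 7 windows in all, and not for Dmtn or 5830444B04Rik. The 250 bases before the start are shown for Plk2 and Gm42031, the protein-coding and the noncoding gene with the highest Eµ-TCL1 values, in the direction of transcription, with each matched motif in capitals. The Plk2 bases lie at chr13:110394794-110395043 on the plus strand and the Gm42031 bases at chr8:85131815-85132064 on the minus strand.
Plk2: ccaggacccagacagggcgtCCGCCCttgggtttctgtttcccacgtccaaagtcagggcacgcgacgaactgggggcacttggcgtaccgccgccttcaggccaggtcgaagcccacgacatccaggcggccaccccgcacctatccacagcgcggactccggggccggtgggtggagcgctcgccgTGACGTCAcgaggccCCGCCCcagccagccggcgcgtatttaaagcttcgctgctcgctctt
Gm42031: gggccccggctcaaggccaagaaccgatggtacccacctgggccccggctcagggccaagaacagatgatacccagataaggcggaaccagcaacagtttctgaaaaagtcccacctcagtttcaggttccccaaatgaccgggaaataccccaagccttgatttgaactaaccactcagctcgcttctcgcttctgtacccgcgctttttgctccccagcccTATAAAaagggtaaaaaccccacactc

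For each window 6 motifs were searched on both strands. In the Plk2 window, TGACGTCA, the palindrome known as the cAMP response element, begins 62 bases before the start. That motif stands in 1.55% of the 32851 RefSeq windows of the same length, and in no window of the other members. Plk2 also holds GGGCGG, the GC box, on the opposite strand at 47 and 230 bases before the start, a motif found in 32.7% of all windows. In Gm42031 the TATA box letters TATAAA begin 27 bases before the RefSeq start, and 12.4% of all windows hold them. GENCODE draws this minus-strand gene out to 85132289, so by that annotation the Gm42031 bases shown lie inside the gene and not before it. Klhdc8b has 2 annotated starts and carries TATAAA before one of them and CCAAT and GGGCGG before the other. Fxyd6 carries CCAAT, which 33.8% of windows hold. The Cplx2 and Cacng2 windows held none of the motifs, and CACGTG and TGANTCA (with N any base) were found in no member, against 6.02% and 6.75% of all windows. The 6 genes therefore had no searched motif in common. These matches are descriptions of letters and say nothing of the factors.

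Counts per library ran from 3356297 to 10252426. The Eµ-TCL1 library had the lowest total and, at 21475, the largest number of symbols with a value. The 7 B-cell markers read here had counts in every library and summed to 3613 CPM in the Eµ-TCL1 mouse, inside the 1790 to 5284 CPM of the Eµ-PRMT5 mice (CPM, counts scaled to library size with edgeR's TMM factors). None of them was above all Eµ-PRMT5 mice and 2 were below, beside 2361 of the 13173 tested genes that were below. The 2 markers were Cd22, an inhibitory coreceptor, at 113 against 124 to 549 CPM, and Cd5. The label could not be checked on the human TCL1 transgene in this mouse gene table. Cd5, which marks the leukemic cells of this model, was at 16.2 CPM in the Eµ-TCL1 mouse and ran from 28.1 to 56.3 CPM over Eµ-PRMT5 mice and from 23.3 to 57.6 CPM over Eµ-PRMT5/TCL1 mice, so the mouse labelled Eµ-TCL1 had the lowest Cd5 of all 8. Mouse Prmt5 was at 79.5 CPM in the Eµ-TCL1 mouse, against 149 ± 72.3 CPM (SD, n = 4) in Eµ-PRMT5 mice. That gene cannot serve as a check of the human PRMT5 transgene, because the handling of human reads is not stated.

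Plk2 lies on chromosome 13 of GRCm38 from 110395046 to 110400844 on the plus strand. It was at 65.8, 27.7, 13.9 and 29.6 CPM in Eµ-PRMT5 mice 1 to 4, at 10.8, 21.2 and 36.4 CPM in Eµ-PRMT5/TCL1 mice 1 to 3, and at 624 CPM in the Eµ-TCL1 mouse. The Eµ-TCL1 value rests on 2309 counts, with an exact Poisson 95% interval of 599 to 650 CPM, and is 9.49 times the highest Eµ-PRMT5 value and 17.1 times the highest Eµ-PRMT5/TCL1 value. The other 7 mice overlapped between genotypes. Among the Eµ-PRMT5 mice Plk2 still varied 4.73-fold, the widest range of the 8 genes there, with mouse 1 highest. In bulk counts, fewer cells of a type and less RNA per cell cannot be told apart, for this gene and the others.

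Fxyd6 lies on chromosome 9 from 45370185 to 45396159 on the plus strand. In the Eµ-PRMT5 mice it was near the detection limit, at 1.42, 0.633, 2.51 and 1.04 CPM, from 4 to 11 counts per library. The Eµ-PRMT5/TCL1 mice split, with 10.98 CPM (67 counts) in mouse 1, 5.99 CPM (39 counts) in mouse 3 and 0 counts in mouse 2, which allows up to 0.429 CPM (3 counts, counting error only). In the Eµ-TCL1 mouse Fxyd6 reached 53.5 CPM (198 counts), 21.3 times the highest Eµ-PRMT5 mouse, the largest such ratio among the 8 genes.

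Cplx2 (chromosome 13, 54371349 to 54383917, plus strand) was at 10.8, 6.33, 10.7 and 3.92 CPM in Eµ-PRMT5 mice 1 to 4. The Eµ-PRMT5/TCL1 mice held 7.54, 11.2 and 8.14 CPM, which overlapped the Eµ-PRMT5 range. The Eµ-TCL1 mouse held 109 CPM from 405 counts, 10.2 times the highest Eµ-PRMT5 value.

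Cacng2 (chromosome 15, 77991748 to 78120028, minus strand) had the lowest counts in the Eµ-TCL1 library, 108, or 29.2 CPM with an interval of 23.9 to 35.2 CPM. It was at 3.45, 2.53, 4.33 and 1.84 CPM in Eµ-PRMT5 mice 1 to 4 and at 3.93, 4.15 and 3.23 CPM in Eµ-PRMT5/TCL1 mice 1 to 3. All 3 double transgenic mice fell inside the Eµ-PRMT5 range, and Cacng2 moved by no more than 1.28-fold among them.

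Klhdc8b (chromosome 9, 108447636 to 108461581, minus strand) was the steadiest of the 8 genes in Eµ-PRMT5 mice, at 3.45, 3.80, 5.24 and 4.50 CPM, a range of 1.52-fold. In Eµ-PRMT5/TCL1 mice it was at 8.36, 3.00 and 10.9 CPM. Mice 1 and 3 thus stood above every Eµ-PRMT5 mouse and mouse 2 below every one. The Eµ-TCL1 mouse held 46.8 CPM, 8.92 times the highest Eµ-PRMT5 value.

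Dmtn (chromosome 14, 70601263 to 70636048, minus strand) was at 8.73, 4.91, 7.52 and 4.27 CPM in Eµ-PRMT5 mice 1 to 4 and at 21.6, 7.72 and 11.4 CPM in Eµ-PRMT5/TCL1 mice 1 to 3. Again mice 1 and 3 exceeded all Eµ-PRMT5 mice, while mouse 2 lay inside their range. With 58.4 CPM the Eµ-TCL1 mouse was 6.69 times the highest Eµ-PRMT5 mouse and 2.70 times the highest Eµ-PRMT5/TCL1 mouse, the smallest gap to that genotype among the 8 genes.

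The noncoding Gm42031 (chromosome 8, 85125872 to 85132289, minus strand, annotated as a lincRNA) was at 13.8, 9.97, 16.2 and 4.96 CPM in Eµ-PRMT5 mice and at 21.97, 11.6 and 17.1 CPM in Eµ-PRMT5/TCL1 mice. It reached 174 CPM from 642 counts in the Eµ-TCL1 mouse, 10.7 times the highest Eµ-PRMT5 value. The other noncoding gene, 5830444B04Rik (chromosome 4, 155398763 to 155421704, minus strand, a processed transcript), was at 15.4, 9.50, 19.2 and 14.2 CPM in Eµ-PRMT5 mice and at 10.8, 12.6 and 11.1 CPM in Eµ-PRMT5/TCL1 mice. Its 107 CPM in the Eµ-TCL1 mouse were 5.61 times the highest Eµ-PRMT5 value, the smallest ratio of the 8. Both noncoding genes overlapped between the other genotypes.

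**Figure D1:**
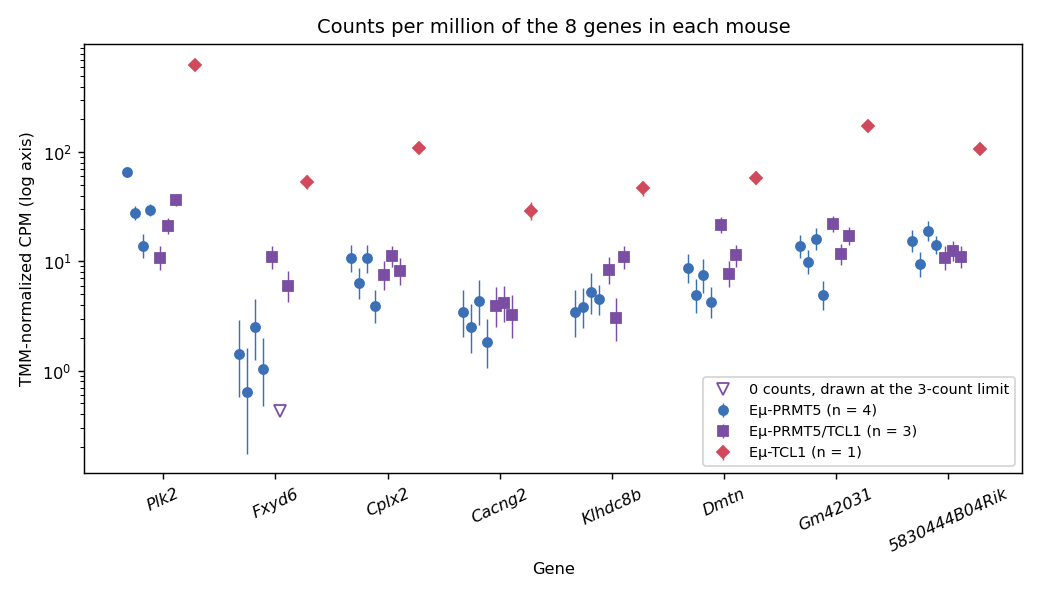
TMM-normalized CPM (log axis) of the 8 genes in each mouse, with exact Poisson 95% intervals as bars. The Eµ-TCL1 mouse (diamond) sits above all 7 other mice for each gene, from 29.2 CPM for Cacng2 to 624 CPM for Plk2, while circles (4 Eµ-PRMT5 mice) and squares (3 Eµ-PRMT5/TCL1 mice) overlap for all 8 genes; the open triangle is Fxyd6 at 0 counts.

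Levels of different genes can be set beside each other only per length. Per kilobase of merged GENCODE vM21 exons, Plk2 led in the Eµ-TCL1 mouse with 139 CPM, followed by Gm42031 with 92.1 CPM. Cplx2 had 22.2 and 5830444B04Rik 19.8 CPM per kilobase, with Fxyd6 at 13.03. Dmtn, Klhdc8b and Cacng2 lay close together at 5.96, 5.56 and 5.30 CPM per kilobase. In Eµ-PRMT5 mice Plk2 and Gm42031 led as well, with means of 7.63 and 5.96 CPM per kilobase, and Fxyd6 was lowest with 0.341. Transcript use was not measured, so these lengths are those of all annotated exons.

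All 8 genes stood in the Eµ-TCL1 mouse above all 4 Eµ-PRMT5 mice, as 24.4% of the 13173 tested genes did, and above all 7 other mice, as 21.3% did. All 8 also exceeded the highest Eµ-PRMT5 mouse more than 4-fold, which 88 tested genes did, or 0.668%. Nothing can be read from these counts, since the genes were chosen on that contrast. Fitted by edgeR, the log2 fold change of the Eµ-TCL1 mouse over Eµ-PRMT5 mice ran from 2.88 (5830444B04Rik) to 5.27 (Fxyd6) with a median of 3.62, beside a median of -0.04 over all tested genes. Against the Eµ-PRMT5/TCL1 mice the log2 fold changes ran from 2.10 (Dmtn) to 4.77 (Plk2).

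The choice left out genes with ratios as large. Among the 11690 tested genes with at least 5 CPM in the Eµ-TCL1 mouse, 25 had a ratio to the highest Eµ-PRMT5 mouse at or above that of 5830444B04Rik, and 17 of these are not among the 8. The first 10 by ratio were Fxyd6, Ramp2, Nxph4, Wnt10a, Gm42031, Stpg3, Cplx2, Gm9903, Plk2 and Klhdc8b. Wnt10a, a secreted Wnt ligand, was at 571 CPM in the Eµ-TCL1 mouse and at most 48.8 CPM in Eµ-PRMT5 mice, a ratio of 11.7. Ramp2, an accessory subunit of the calcitonin receptor family, and Nxph4, a neurexophilin, were low, at 6.22 and 5.95 CPM in the Eµ-TCL1 mouse. Stpg3 was at 9.46 CPM and Gm9903 at 17.3 CPM there. Around the last of the 8 genes, Gm27216 had a ratio of 5.69 and Rab26 one of 5.47, so no gap in the ratios separates the 8 genes from the rest.

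**Figure D2:**
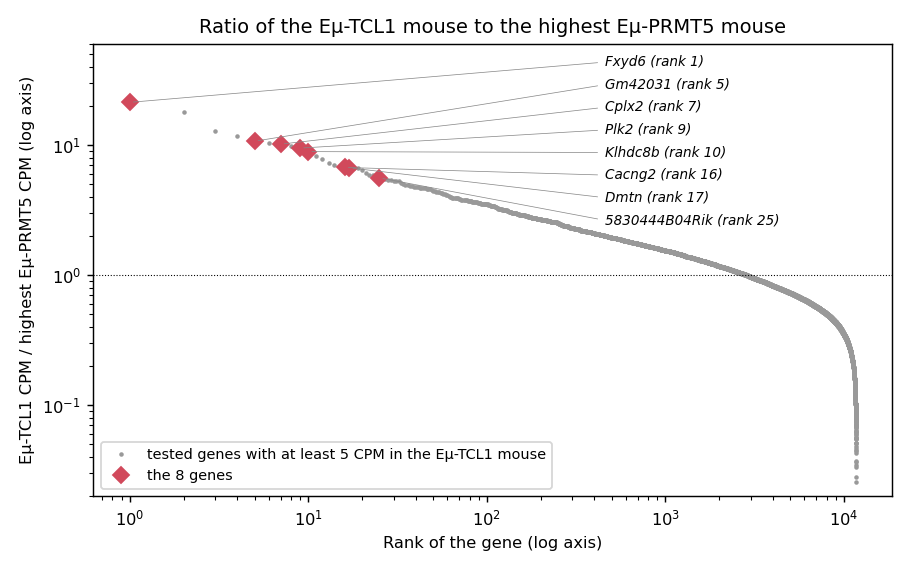
Ratio of the CPM in the Eµ-TCL1 mouse to the highest Eµ-PRMT5 mouse (log axis) against the rank of that ratio (log axis) for 11690 tested genes. Diamonds mark the 8 genes, which hold ranks 1 to 25 together with 17 other genes, and their ratios run from 21.3 for Fxyd6 to 5.61 for 5830444B04Rik.

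The Eµ-PRMT5/TCL1 mice carry the same TCL1 transgene and did not enter the choice, so they allow the only test between replicated groups, against Eµ-PRMT5 mice, whose low values did enter it. None of the 8 genes was called by edgeR's quasi-likelihood test (adjusted p = 1.0 for each; a call needed an adjusted p below 0.05 with more than a 4-fold change). Across all tested genes 0 were called (0.0%), 286 (2.17%) had an unadjusted p under 0.05, and DESeq2 called 4. No member was among the 286. With 4 and 3 mice the intervals were wide, and for each member a 2-fold change in at least 1 direction lies inside its interval.

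Fxyd6 had the largest estimate, a log2 fold change of 2.03 (standard error 1.00, 95% interval -0.15 to 4.22, unadjusted p = 0.0654 in edgeR), higher in 2 of 3 Eµ-PRMT5/TCL1 mice than in any Eµ-PRMT5 mouse. Dmtn followed with 1.10 (standard error 0.51, interval -0.0001 to 2.20, unadjusted p = 0.05002 in edgeR). In DESeq2 the unadjusted p was 0.0236 for Fxyd6 and 0.0334 for Dmtn, with an adjusted p of 0.9997 for both. Klhdc8b was at 0.80 (interval -0.37 to 1.97) and Gm42031 at 0.59 (interval -0.38 to 1.57). Cacng2 was at 0.32 (interval -0.84 to 1.49) and Cplx2 at 0.18 (interval -0.83 to 1.198). Plk2 and 5830444B04Rik had negative estimates, -0.59 (interval -1.73 to 0.56) and -0.34 (interval -1.199 to 0.52). The median over the 8 genes was 0.46, beside -0.09 over all tested genes. Low Eµ-PRMT5 values entered the choice of the 8 genes, which can raise this median.

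**Figure D3:**
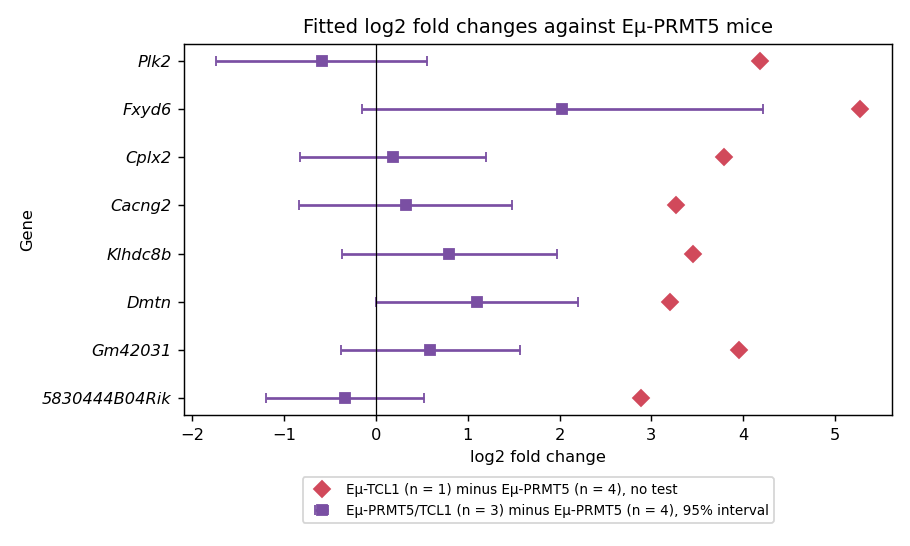
Fitted log2 fold change of each gene. Squares are Eµ-PRMT5/TCL1 (n = 3) minus Eµ-PRMT5 (n = 4) with 95% intervals, which all include 0 and reach from -1.73 (Plk2) to 4.22 (Fxyd6), and diamonds are Eµ-TCL1 (n = 1) minus the same Eµ-PRMT5 mice without a test, from 2.88 to 5.27.

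For no member did all 3 Eµ-PRMT5/TCL1 mice stand above all 4 Eµ-PRMT5 mice, which held for 1.35% of tested genes. Leaving out Eµ-PRMT5/TCL1 mouse 2 gave 4 such members, with 2.49% of tested genes, and leaving out Eµ-PRMT5 mouse 1 gave 1, with 2.60%. For Fxyd6, Klhdc8b, Dmtn and Gm42031, mice 1 and 3 both exceeded every Eµ-PRMT5 mouse and mouse 2 did not. This pattern was looked for after the values were seen and held for 1.15% of tested genes. It held for 3 members with library size alone or upper-quartile scaling. The members were chosen partly for low Eµ-PRMT5 values, which can raise each of these member counts. No excess over the tested genes can therefore be read from them.

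Correlations of log2 CPM (prior count 2) describe which of the 8 genes share more than the 1 high library; no p is given. Over the 8 libraries the 28 pairs had Pearson's r from 0.57 (Plk2 with Fxyd6) to 0.99 (Cplx2 with Cacng2), with a median of 0.85. Without the Eµ-TCL1 library the median was 0.14 and 12 of the 28 pairs were negative. Cplx2 with Cacng2 stayed at 0.91, Fxyd6 with Klhdc8b at 0.89, Dmtn with Gm42031 at 0.86 and Cacng2 with Gm42031 at 0.83. Plk2 did not go with the other 7 genes in those 7 libraries, where its r ran from -0.40 (Cacng2) to 0.02 (5830444B04Rik). The points share library depth and cell makeup.

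**Figure D4:**
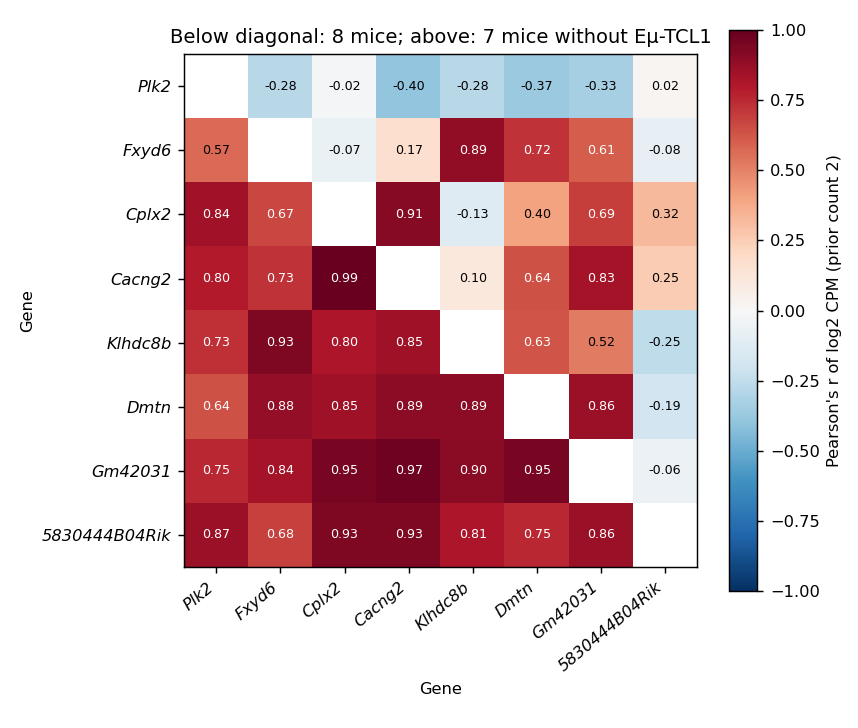
Pearson's r of log2 CPM for the 28 pairs of the 8 genes, over 8 mice below the diagonal and over the 7 mice other than Eµ-TCL1 above it. Below the diagonal every r is at least 0.57, and above it the median is 0.14, with Cplx2, Cacng2, Dmtn and Gm42031 still positive with each other and the Plk2 row between -0.40 and 0.02.

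Outside the 8 genes, the profiles most like Plk2 over all libraries were those of Naif1 (r = 0.96), Pnkd (0.95), Prmt9 (0.94), Cyhr1 (0.93) and Tmprss13 (0.93). Their rise was smaller, with Naif1 at 50.0 CPM and Pnkd at 106 CPM in the Eµ-TCL1 mouse and at most 30.8 and 82.2 CPM in Eµ-PRMT5 mice. Over the 7 libraries without the Eµ-TCL1 mouse the closest were Dpp8 (0.97), Fam118a (0.97), Fopnl (0.97), Pnkd (0.96) and Thumpd3 (0.96), so Pnkd alone stood in both sets. Dpp8, Fam118a, Fopnl and Thumpd3 did not share the peak, with 120.9, 69.2, 33.8 and 87.3 CPM in the Eµ-TCL1 mouse. Each was inside or below its Eµ-PRMT5 range.

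The other Polo-like kinases did not share the peak of Plk2. Plk1, the mitotic kinase, was at 19.5 CPM in the Eµ-TCL1 mouse and at 9.18 to 194 CPM in Eµ-PRMT5 mice. Plk4, which drives centriole duplication, was at 14.1 CPM, and 6.61 to 102 CPM in Eµ-PRMT5 mice, with mouse 4 highest for both kinases. Plk3, a stress-responsive kinase, was at 14.6 CPM, within 6.29 to 33.6 CPM. Plk2 was the only one of the 4 measured kinases above all Eµ-PRMT5 mice. Plk5 was not measured in every library.

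Plk2 is also a p53 target. Of the 16 other measured genes in a list of 18 p53 targets, 2 stood above all Eµ-PRMT5 mice in the Eµ-TCL1 mouse, as 24.4% of all tested genes did, and none more than 4-fold, as 0.668% did. These were Gadd45a, a growth arrest gene, at 44.6 CPM against at most 25.5 CPM, and Zmat3, an RNA-binding p53 target, at 42.2 against at most 31.5 CPM. Cdkn1a, the p21 cell cycle inhibitor, was at 111 CPM in the Eµ-TCL1 mouse, inside the Eµ-PRMT5 range of 17.1 to 440 CPM. Btg2, an antiproliferative gene, was at 339 CPM, inside its range of 84.7 to 584 CPM. Against Eµ-PRMT5 mice, Sesn1 and Trp53inp1 had unadjusted p values under 0.05 in Eµ-PRMT5/TCL1 mice, with log2 fold changes of -0.96 and -0.97, and no gene of the list was called.

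Among 11 FXYD proteins and Na,K-ATPase subunits, 5 were measured in all libraries. Beside Fxyd6, Atp1b1, the beta-1 subunit of the pump, was at 126 CPM in the Eµ-TCL1 mouse against 3.11 to 26.2 CPM in Eµ-PRMT5 mice, 4.80 times the highest. It was singled out after its values were seen. Fxyd4 was slightly above, 27.04 against at most 20.7 CPM. Fxyd5 (dysadherin) was below all Eµ-PRMT5 mice, 123 against 158 to 406 CPM. Atp1b3, another beta subunit, was also below, 77.6 against 139 to 387 CPM. Of the 13173 tested genes, 2361 were below all Eµ-PRMT5 mice. By edgeR none of the 5 had an unadjusted p under 0.05 for the double transgenic against the Eµ-PRMT5 mice.

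Of 25 complexin and SNARE machinery genes, 17 were measured. Beside Cplx2, Stx2, a target-membrane SNARE, was above all Eµ-PRMT5 mice at 74.9 against at most 45.4 CPM. Napa, which recycles SNARE complexes, was at 425 CPM, inside 229 to 730 CPM. Syt11, a synaptotagmin, had a log2 fold change of -1.16 in Eµ-PRMT5/TCL1 mice (unadjusted p = 0.0222 in edgeR) and was not called. Of the complexins only Cplx2 was measured in all libraries.

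Of 12 TARP and AMPA receptor genes, 3 were measured. Apart from Cacng2 these were the receptor subunits Gria3, at 11.6 CPM in the Eµ-TCL1 mouse against 5.30 to 12.3 CPM, and Gria4, at 34.3 against 4.73 to 22.6 CPM. Among 6 other kelch-domain KLHDC genes, 2 were above all Eµ-PRMT5 mice, as 24.4% of all tested genes were. These were Klhdc2 (86.5 against at most 62.3 CPM) and Klhdc9 (2.97 against at most 2.28 CPM), neither more than 4-fold. Among 13 other genes of the spectrin-actin membrane skeleton, 3 were above, beside the same 24.4% of all tested genes, and none more than 4-fold. These were Add1 (352 against at most 333 CPM), Add2 (38.7 against at most 24.4 CPM) and Tmod1 (10 against at most 8.21 CPM). Another 3 were below all Eµ-PRMT5 mice, beside 2361 of the 13173 tested genes. They were Epb41 (70.8 against at least 73.1 CPM), Sptbn1 (134 against at least 154 CPM) and Slc2a1 (39.7 against at least 41.5 CPM). Tmod3, which caps actin filaments, was at 379 CPM, inside 230 to 594 CPM. Slc4a1, the red cell anion exchanger that is linked to this skeleton, was at 3.79 CPM, below its highest Eµ-PRMT5 value of 71.7 CPM.

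**Figure D5:**
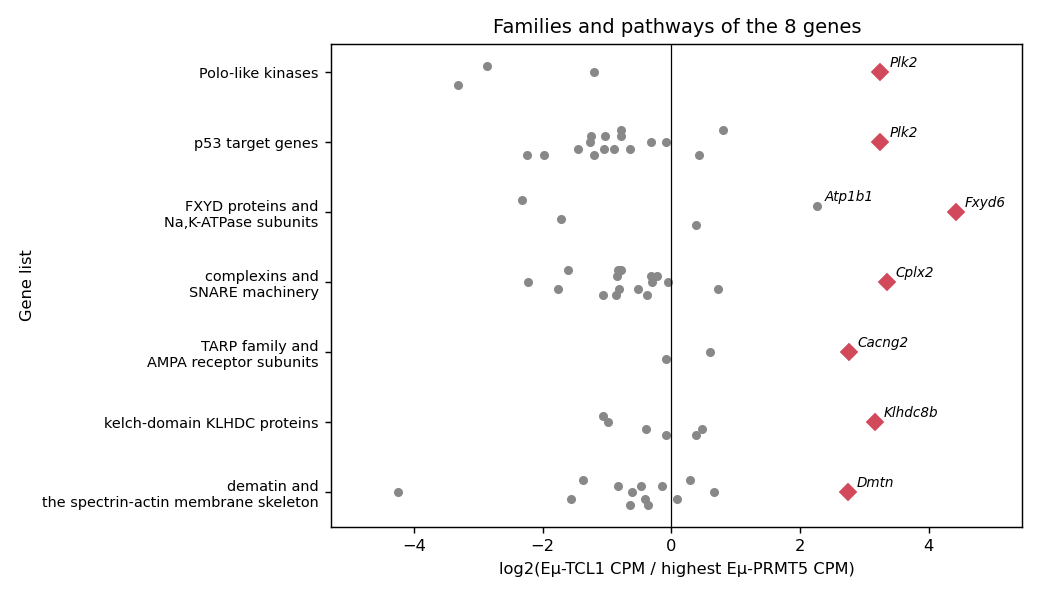
The log2 ratio of the Eµ-TCL1 mouse to the highest Eµ-PRMT5 mouse for the measured genes reported from 7 lists, with the 8 genes' list members as diamonds and others as circles. Plk2, Fxyd6, Cplx2, Cacng2, Klhdc8b and Dmtn lie to the right of the other genes drawn for their lists, and of the circles drawn Atp1b1 (4.80 times) exceeds 4-fold.

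Markers of other cells were read beside these genes. Of the plasma cell markers, Prdm1, the plasma cell regulator, was at 210 CPM against 38.9 to 95.2 CPM in Eµ-PRMT5 mice, and Tnfrsf17 (BCMA) at 63.0 against 7.73 to 23.3 CPM, so 2 of 7 markers were above all Eµ-PRMT5 mice, beside 24.4% of all tested genes. The summed level of the 7 was 2541 CPM, inside the 1240 to 6053 CPM of Eµ-PRMT5 mice and the 781 to 3486 CPM of Eµ-PRMT5/TCL1 mice, and Sdc1, Jchain and Xbp1 were inside their Eµ-PRMT5 ranges. In Eµ-PRMT5 mice 1 to 4 the plasma cell sums were 6053, 2680, 2102 and 1240 CPM, beside Plk2 at 65.8, 27.7, 13.9 and 29.6 CPM. In Eµ-PRMT5/TCL1 mice 1 to 3 they were 885, 781 and 3486 CPM, beside Plk2 at 10.8, 21.2 and 36.4 CPM. The part of plasma cells in the result was not tested.

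The 7 of 12 erythroid markers that were measured in all libraries summed to 36.2 CPM in the Eµ-TCL1 mouse, against 24.1 to 434 CPM in Eµ-PRMT5 mice, and none was above all Eµ-PRMT5 mice. Eµ-PRMT5 mouse 4, with the largest sum, had the lowest Dmtn of all mice, and Eµ-PRMT5/TCL1 mouse 1, with the next largest sum at 337 CPM, had the highest Dmtn of the 7 mice other than Eµ-TCL1, at 21.6 CPM. The part of red cells in the Dmtn values was not tested. The 4 measured megakaryocyte and platelet markers summed to 62.5 CPM, inside the 29.4 to 82.1 CPM of Eµ-PRMT5 mice, with Gp9 at 0 and Gp1ba the 1 marker above. Neutrophil markers (10 of 10 measured) summed to 605 CPM, inside 427 to 5352 CPM, and in Eµ-PRMT5/TCL1 mice ran from 650 to 9037 CPM. Macrophage markers (4 of 8) summed to 122 CPM, inside 51.1 to 239 CPM, with Mertk above all Eµ-PRMT5 mice. T cell markers (4 of 8) summed to 192 CPM, below the 242 to 558 CPM of Eµ-PRMT5 mice. Most of that sum was Lck, at 121 against 200 to 387 CPM. Cd3e and Cd3g were inside their Eµ-PRMT5 ranges, and Cd3d was just below, at 2.43 against at least 2.65 CPM. NK cell markers (4 of 7) summed to 30.8 CPM, below 45.9 to 364 CPM, with Nkg7 and Klrk1 below and Ncr1 and Prf1 inside their Eµ-PRMT5 ranges. Beside these T cell and NK cell markers, 2361 of the 13173 tested genes were below all Eµ-PRMT5 mice. Of 8 endothelial and stromal markers only Pecam1 was measured throughout, at 92.7 CPM and inside its range.

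The 8 genes lie on 6 chromosomes, with Plk2 and Cplx2 on chromosome 13 and Fxyd6 and Klhdc8b on chromosome 9, far apart in both cases. The nearest tested gene on each side was read for all 8. Of these 16 neighbors, 3 stood above all Eµ-PRMT5 mice in the Eµ-TCL1 mouse, beside 24.4% of all tested genes, and none exceeded 4-fold, the largest ratio being 2.41 for Tmprss13, which lies 22604 bases before Fxyd6. Gapt, 37847 bases before Plk2, was at 9.46 CPM, inside 9.22 to 29.2 CPM. For 3 of the 8 genes, exons share bases with a gene of the opposite strand, and no source says whether counting was strand-specific. Cfap74 shares 453 exon bases (8.37%) with 5830444B04Rik and was at 137 CPM in the Eµ-TCL1 mouse, 2.85 times its highest Eµ-PRMT5 value of 47.9 CPM, so reads of these 2 genes cannot be told apart where they overlap. Ccdc71 shares 220 bases (2.61%) with Klhdc8b and was at 90.8 CPM, below its highest Eµ-PRMT5 value of 116 CPM. The antisense gene A730060N03Rik shares 323 bases (5.86%) with Cacng2 and has no row in the matrix. Plk2, Fxyd6, Cplx2, Dmtn and Gm42031 share no exon bases with another GENCODE gene.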

How the data were processed

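Raw counts per gene symbol were deposited by the authors for 8 splenic B-cell libraries, without normalization or pooling. Per the study's methods these were low-input libraries processed by the CLEAR workflow; the labels describe another kit. The submitters' processing notes name featureCounts, GRCm38 and DESeq2 1.20.0. Of 24902 symbols, the 14072 with a value in all libraries were used, since the meaning of NA is not stated, and no row without a gene was counted. edgeR 4.0.16 (R 4.3.3) with TMM, its expression filter (13173 genes), 1 model of 3 groups (biological coefficient of variation 0.483), its quasi-likelihood test and p-values adjusted by Benjamini-Hochberg was checked on simulated data. DESeq2 1.42.0 was an alternative, with other scalings, filters, a replicate block and each mouse left out. p-values measure the spread between mice. Intervals and 3-count limits cover counting error only.

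The 8 genes and the lists were chosen with earlier results of these data known. Some genes of the lists are not reported here, and list counts leave them out. Other genes were named as relatives of the 8, as list genes with an unadjusted p under 0.05 or the highest level, as the 5 most correlated with Plk2 over 8 or 7 libraries, as the 10 largest Eµ-TCL1 ratios at 5 CPM or more, or as label checks. Python 3.11.15 and scipy 1.17.1 were used, with GENCODE vM21 (GRCm38) for positions.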

Additional observations from a re-analysis of the deposited data

Results flagged for a closer look

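In 5 of 30 named genes, 1 Eµ-PRMT5 mouse lay apart from the other 3 by Dixon's criterion, which chance alone meets in about 1 of 20 groups. None of the 8 genes was among them. Plk1 was at 194 CPM in Eµ-PRMT5 mouse 4 and at 9.18 to 15.6 CPM in the others. Plk4 was at 102 CPM in the same mouse and at 6.61 to 19.3 CPM in the others. Plk3 was at 33.6 CPM in mouse 2 and at 6.29 to 7.26 CPM in the others. Wnt10a was at 48.8 CPM in mouse 3 and at 8.53 to 14.6 CPM in the others. Ramp2 was at 0.346 CPM in mouse 4, which is the 3-count limit there, and at 0 in the others.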

How the results depend on the processing

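Between the double transgenic and the Eµ-PRMT5 mice, edgeR called 0 genes in both directions and also with each mouse left out (0 to 0); DESeq2 called 3 higher and 1 lower, and an unadjusted p under 0.05 held for 126 and 160. The replicate block also called 0. Mice with the same number had deviation correlations of -0.02, 0.15 and 0.16 and are different animals. Mice with different numbers were not correlated, so these values cannot tell whether mice of the same number were handled together. On the same 6 mice, 826 genes had an unadjusted p under 0.05 in edgeR with the replicate block and 742 without it. The Cplx2 log2 fold change in that comparison turned from 0.18 to -0.037 with the replicate block, to -0.0453 without Eµ-PRMT5 mouse 4 and to -0.00605 without Eµ-PRMT5/TCL1 mouse 2, and rose to 0.396 without Eµ-PRMT5 mouse 1; on the 6 mice of the replicate block it was -0.0514 without the block. The cause was not tested otherwise. The other 132 of 135 recomputed member values there kept their direction, and no member was called in any of them, with adjusted p values of at least 0.769. The Plk2 value ranged from -1.10 without Eµ-PRMT5/TCL1 mouse 3 to -0.05 without Eµ-PRMT5 mouse 1, and the Fxyd6 value from 1.12 without Eµ-PRMT5/TCL1 mouse 1 to 2.62 without mouse 2, and was 1.08 with the replicate block and 1.90 on those 6 mice without it. Members with all 3 Eµ-PRMT5/TCL1 mice above all Eµ-PRMT5 mice numbered 0 to 4 when 1 mouse was left out. All 8 genes stayed above the other mice in the Eµ-TCL1 library under each scaling. They also stayed above with each other mouse left out, which could hardly come out otherwise, since they were above all of them to begin with. The median log2 fold change over Eµ-PRMT5 mice ran from 3.37 to 3.85 over the settings. The genes were chosen on that contrast, so this stability is no support for it. Of the 5 genes most like Plk2, rank correlation kept 0 and the 7 libraries without Eµ-TCL1 kept 1. Leaving out the Eµ-TCL1 mouse leaves no value for it. Members at 4 to 40 counts per library carry wide counting intervals, Fxyd6 most of all.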
